A study of Mus musculus with 18 samples.

Results

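The chemokine genes of a mouse liver tumor RNA-seq study were taken as every protein-coding gene whose symbol named a numbered Ccl, Cxcl, Ccr or Cxcr gene, together with Cx3cl1, Cx3cr1, Xcl1 and Xcr1. This gave 55 genes, 37 ligands and 18 receptors, of 43346 genes in the table of tumor counts, of which 22032 were protein coding. The tumors carried myr-AKT, a membrane-targeted and active form of the kinase AKT, with YAP that bears either the S127A and Y357F changes (YAP-SY) or S127A alone (YAP-S). YAP is a transcriptional co-activator of the Hippo pathway. The S127A change removes a site whose phosphorylation keeps YAP out of the nucleus, and Y357F replaces a tyrosine that can be phosphorylated. All 12 tumors therefore carried active AKT and S127A YAP, and no liver without these oncogenes was analysed here. The groups were YAP-SY cholangiocarcinoma (CCA, tumors 1, 6 and 8), YAP-SY mixed tumors (3, 5 and 9), YAP-S CCA (3, 4 and 5) and YAP-S mixed tumors (2, 7 and 9). SB1, a cell line with the genotype label of YAP-S CCA, was measured in 3 samples. The SY1 line, labelled as YAP-SY CCA, was not analysed here. The labels give no strain, age or sex, nor which promoter drove the oncogenes. They do not say whether tumors with different numbers came from separate mice or whether the SB1 samples were separate cultures, so p-values measure the spread between these samples.

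Chemokines are small secreted proteins, and a few membrane-bound ones, that direct the movement of leukocytes through G protein-coupled receptors. The CC and CXC families take their names from the spacing of conserved cysteines. In the liver, hepatocytes, bile duct cells, endothelium, stellate cells and resident macrophages all make ligands, and most of the receptors sit on leukocytes. The ligands fall into groups with shared receptors, such as Ccl2, Ccl7 and Ccl12 with Ccr2 on monocytes, or Cxcl1, Cxcl2 and Cxcl5 with Cxcr2 on neutrophils.

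Tumor libraries held 30656499 to 130035221 counts and SB1 libraries 25341968 to 30541185. Genes detected by at least 1 count numbered 18207 in YAP-SY CCA 1, the lowest, and 20440 to 24391 elsewhere among the tumors. Levels are given in CPM, read counts scaled to a common library total. Markers of hepatocytes and bile ducts were checked in the tumors. The 8 hepatocyte markers summed to 125000 to 145000 CPM in YAP-SY CCA and 43100 to 51200 CPM in YAP-S CCA, and the 8 bile duct markers to 2760 to 4170 CPM in YAP-SY CCA and 7270 to 10700 CPM in YAP-S CCA. In mixed tumors the hepatocyte sums were 79500 to 103000 CPM (YAP-SY) and 73200 to 80500 CPM (YAP-S). The bile duct sums there were 4250 to 16400 CPM (YAP-SY) and 9350 to 10200 CPM (YAP-S). Every YAP-SY CCA tumor thus lay above every other tumor in the hepatocyte sum and below every other in the bile duct sum. The labels were kept as given. Krt19, a keratin of bile duct cells, averaged 6.51 ± 7.86 CPM in YAP-SY CCA and 60.3 ± 26.5 CPM in YAP-S CCA (SD, n = 3 each). Across these samples 47 of the 55 chemokine genes, 31 ligands and 16 receptors, passed the filter on low counts and were tested. The other 8 were Cxcr1, Ccl21b, Ccl27b, Cxcl15, Ccl26, Cxcl17, Ccl1 and Ccr10.

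The promoters of 5 ligands are shown as examples of promoters that match the NF-kB consensus, and all 5 were chosen with that match known. Cxcl1, Cxcl2 and Cxcl10 were lower in YAP-SY CCA, Ccl9 was higher there, and Ccl20 was a leading ligand of SB1 cells. Each sequence is the 250 bases before the gene's start in RefSeq (GRCm38.p6), 5′ to 3′ on the gene's own strand. The windows are chr5:90890995-90891244 (plus strand) for Cxcl1, chr5:90903649-90903898 (plus) for Cxcl2, chr5:92348890-92349139 (minus) for Cxcl10, chr1:83116516-83116765 (plus) for Ccl20 and chr11:83578637-83578886 (minus) for Ccl9. Capitals mark matches on either strand to the NF-kB consensus, to the core of the interferon-stimulated response element (GAAA, any 2 bases, GAAA), or to GGAATG, the TEAD motif through which YAP's DNA-binding partners act.
Cxcl1: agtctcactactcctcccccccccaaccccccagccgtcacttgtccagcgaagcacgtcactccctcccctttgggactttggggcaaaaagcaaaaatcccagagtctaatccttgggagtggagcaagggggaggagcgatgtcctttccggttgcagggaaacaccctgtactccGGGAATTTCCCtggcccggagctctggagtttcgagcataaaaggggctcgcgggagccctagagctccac
Cxcl2: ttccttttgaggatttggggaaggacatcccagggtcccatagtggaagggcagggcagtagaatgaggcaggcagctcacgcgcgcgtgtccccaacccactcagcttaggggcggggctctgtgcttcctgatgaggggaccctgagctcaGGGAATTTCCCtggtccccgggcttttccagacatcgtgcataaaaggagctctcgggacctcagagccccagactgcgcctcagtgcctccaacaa
Cxcl10: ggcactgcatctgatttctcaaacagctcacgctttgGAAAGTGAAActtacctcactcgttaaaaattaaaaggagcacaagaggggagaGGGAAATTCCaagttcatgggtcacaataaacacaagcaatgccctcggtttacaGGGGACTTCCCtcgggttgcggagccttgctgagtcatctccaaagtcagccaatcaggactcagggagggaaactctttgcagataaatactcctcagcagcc
Ccl20: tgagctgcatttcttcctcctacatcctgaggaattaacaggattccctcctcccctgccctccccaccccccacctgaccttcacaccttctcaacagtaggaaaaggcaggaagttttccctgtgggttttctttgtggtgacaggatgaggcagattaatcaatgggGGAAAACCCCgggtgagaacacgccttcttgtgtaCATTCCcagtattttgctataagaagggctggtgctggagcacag
Ccl9: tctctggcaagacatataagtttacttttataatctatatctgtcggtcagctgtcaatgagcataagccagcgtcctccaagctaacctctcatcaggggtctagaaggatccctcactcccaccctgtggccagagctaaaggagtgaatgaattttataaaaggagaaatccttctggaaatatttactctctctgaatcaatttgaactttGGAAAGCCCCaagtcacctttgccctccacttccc
Cxcl1 and Cxcl2, neighbours on chromosome 5, hold the same 11-base stretch, GGGAATTTCCC, which matches the NF-kB consensus on both strands. It runs from base -71 to -61 before the start of Cxcl1 and from -97 to -87 before that of Cxcl2. Cxcl10 holds 2 separate NF-kB stretches, GGGAAATTCC and GGGGACTTCCC, and the response element core GAAAGTGAAA upstream of them. In Ccl20 the stretch GGAAAACCCC, an NF-kB match on the opposite strand, is followed by CATTCC, the TEAD motif on the opposite strand. Ccl9 has a stretch close to its start, GGAAAGCCCC, which matches the NF-kB consensus on the opposite strand. A promoter was matched for 41 of the 55 genes. Some genes have more than 1 start, so a gene was counted where any of its promoters held the motif, here and for all 27018 genes with a promoter. The NF-kB consensus was found in 10 of the 41 genes (24.4%) and in 8.24% of all, the response element core in 3 (7.32%) and in 3.46% of all, and GGAATG in 6 (14.6%) and in 14.4% of all. A match is a description of the letters and not a bound site.

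In CCA, 26 of the 47 tested chemokine genes fell in YAP-SY tumors against YAP-S tumors and 2 rose, past an adjusted p of 0.05 in edgeR's quasi-likelihood test. Over all 18318 genes tested, 20.8% fell and 18.3% rose, 39.1% in all. The same shares are the background for every marker and gene list counted in this comparison. At an unadjusted p under 0.05 there were 33 of the 47, against 48.1% of all genes. The 26 comprised 17 ligands and 9 receptors, among them the monocyte ligand Ccl2, the T cell attractants Ccl17 and Ccl22, the neutrophil ligands Cxcl1, Cxcl2 and Cxcl5, and the receptors Cxcr4, Ccr1 and Cxcr3. Cxcl12 and Ccl9, the ligands with the highest levels per kb of transcript over the 12 tumors, were the 2 that rose. The median log2 fold change was -1.90 over the 47 genes and lay at zero over all genes. In 29 of the 47 genes every YAP-SY CCA tumor lay below every YAP-S CCA tumor, and in 3 every one lay above, where the same held for 28.3% and 24.3% of all genes. In bulk tumor RNA, fewer cells of a type and less RNA per cell cannot be told apart.

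**Figure D1:**
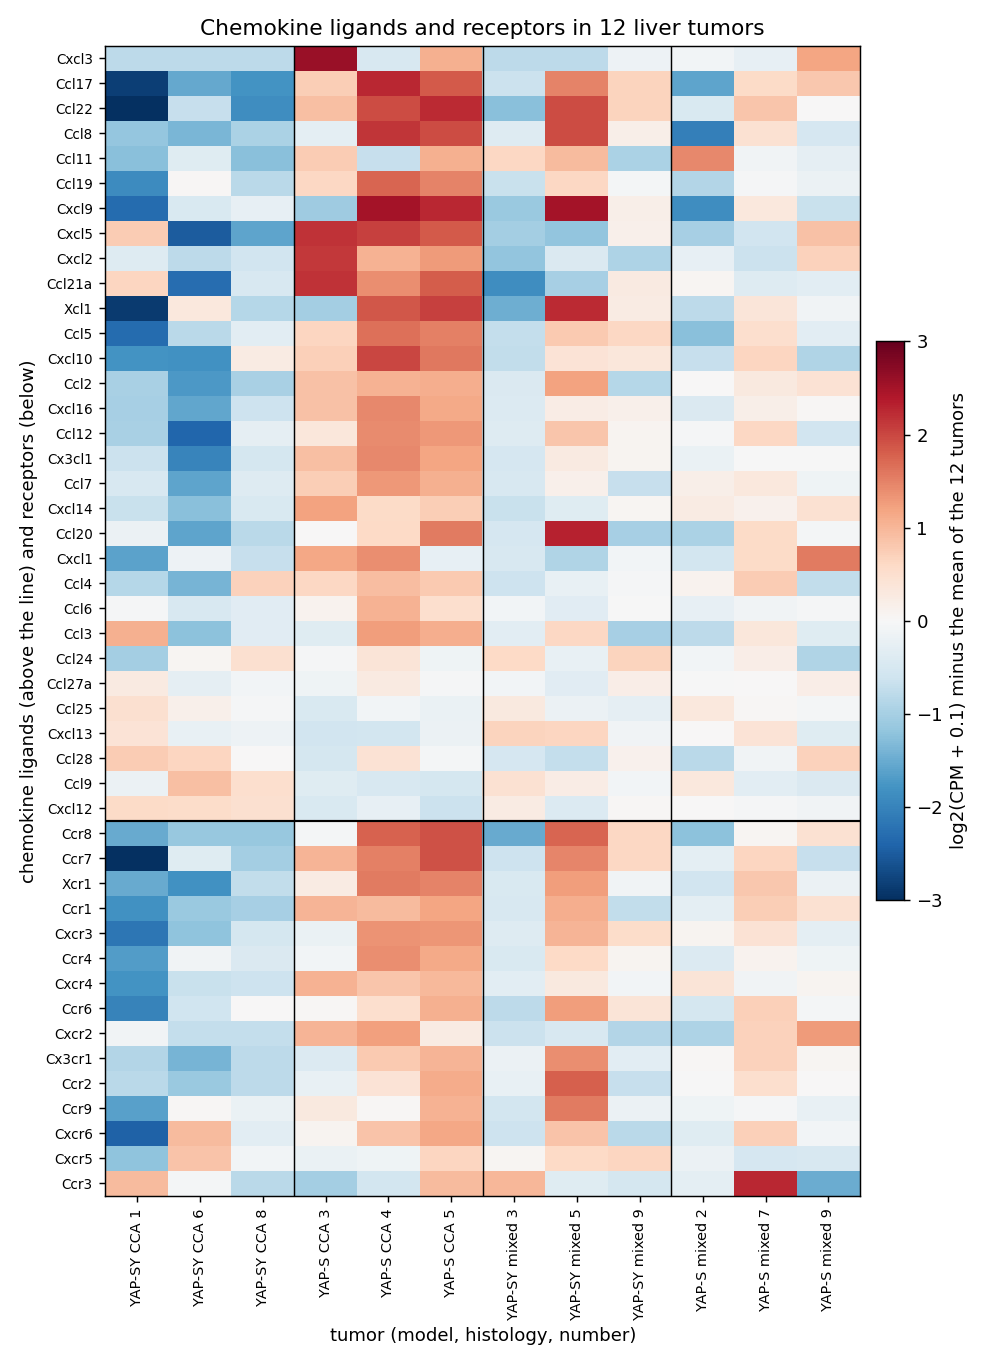
Each row is 1 of 46 tested chemokine genes and each column 1 tumor, coloured by log2(CPM + 0.1) minus that gene's mean over the 12 tumors. The 3 YAP-SY CCA columns are mostly blue and the 3 YAP-S CCA columns mostly red, with Cxcl12 and Ccl9 at the foot of the ligands going the other way, and YAP-SY mixed 5 is the reddest of the mixed tumors.

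Cxcl12, the ligand of Cxcr4 and a product of stromal, endothelial and other resident cells, had the highest level per kb of the 47 genes over the 12 tumors. It had 402, 391 and 377 CPM in YAP-SY CCA, against 195, 226 and 173 CPM in YAP-S CCA. All 3 YAP-SY CCA tumors lay above all 9 other tumors (log2 fold change 0.98 ± 0.17 (SE), adjusted p = 0.000885). Its share of the summed ligand CPM, which is not corrected for transcript length, was 61.3% to 71.9% in YAP-SY CCA and 26% to 38.7% in YAP-S CCA. Cxcr4, found on many leukocytes and some tumor cells, moved the other way, with 2.56, 5.79 and 5.93 CPM in YAP-SY CCA, against 18.9, 16.4 and 18 CPM in YAP-S CCA. The 3 YAP-SY CCA tumors were the lowest of the 12 (log2 fold change -1.90 ± 0.29 (SE), adjusted p = 0.000465). Ccl9, a mouse ligand of Ccr1, had 68.5, 146 and 110 CPM in YAP-SY CCA, against 59.9, 56.1 and 53.5 CPM in YAP-S CCA. The groups did not overlap, but the call (log2 fold change 0.94 ± 0.26 (SE), adjusted p = 0.0129) was lost without either of 2 libraries. Without YAP-SY CCA 6 the log2 fold change was 0.66 (adjusted p = 0.0651), and without YAP-S CCA 5 it was 0.89 (adjusted p = 0.05 after rounding, just over the threshold). Scaling by total counts alone shifted the median of all genes by -0.56, and on that scale Cxcl12 still rose (log2 fold change 0.42, adjusted p = 0.0211) while Ccl9 did not pass (0.36, adjusted p = 0.239). Hepatocyte markers stood higher in the same tumors, 7 of 8 past the threshold, and their part in these 2 results was not tested.

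The 2 ligands that are made as membrane proteins and shed by proteases separated widely. Cxcl16, which binds Cxcr6 on T and NKT cells, had 21.3, 14.3 and 27.5 CPM in YAP-SY CCA, against 78.8, 115 and 93.6 CPM in YAP-S CCA (log2 fold change -2.19 ± 0.26 (SE), adjusted p = 0.00016). Cx3cl1, or fractalkine, had 6.57, 2.57 and 7.21 CPM in YAP-SY CCA, against 19.5, 28.4 and 23.5 CPM in YAP-S CCA (log2 fold change -2.12 ± 0.33 (SE), adjusted p = 0.000522). For both, the highest YAP-SY CCA tumor was under the lowest YAP-S CCA tumor by more than 2-fold. Their receptors were less separated. Cxcr6 had 0.43, 5.42 and 2.2 CPM in YAP-SY CCA, against 2.93, 5.1 and 6.25 CPM in YAP-S CCA and missed the threshold (log2 fold change -0.83 ± 0.69 (SE), adjusted p = 0.365), with YAP-SY CCA 6 lying among the YAP-S CCA tumors. Cx3cr1, on monocytes and macrophages, had 8.11, 5.67 and 8.63 CPM in YAP-SY CCA, against 11.2, 25.7 and 30.4 CPM in YAP-S CCA (log2 fold change -1.58 ± 0.46 (SE), adjusted p = 0.0167). Its call was lost without YAP-SY CCA 6 (adjusted p = 0.0671) or YAP-S CCA 5 (adjusted p = 0.0619) and in limma-voom (adjusted p = 0.061). Both receptors overlap other genes in the annotation. The library kit does not mark strand, so reads of Cxcr6 and Fyco1, and of Cx3cr1 and its neighbours Wdr48, Gorasp1 and Csrnp1, cannot be fully told apart. Cxcl16 likewise overlaps Zmynd15, which averaged 11 CPM over the tumors. The proteases that shed these ligands, named after their values were seen, were also lower, Adam17 at 34.5 ± 3.28 CPM in YAP-SY CCA and 51.7 ± 3.4 CPM in YAP-S CCA (log2 fold change -0.58 ± 0.12 (SE), adjusted p = 0.00227) and Adam10 at 59.8 ± 2.45 CPM in YAP-SY CCA and 81.6 ± 4.7 CPM in YAP-S CCA (log2 fold change -0.45 ± 0.15 (SE), adjusted p = 0.0338; SD, n = 3 each).

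Ligands that draw monocytes and macrophages were among those that fell. Ccl2 had 6.75, 4.03 and 6.84 CPM in YAP-SY CCA, against 24.7, 27.8 and 28.7 CPM in YAP-S CCA, with no overlap (log2 fold change -2.20 ± 0.44 (SE), adjusted p = 0.0021). Ccl7 had 1.36, 0.587 and 1.47 CPM in YAP-SY CCA, against 3.32, 4.95 and 4.17 CPM in YAP-S CCA (log2 fold change -1.86 ± 0.36 (SE), adjusted p = 0.00195), and Ccl12 had 0.838, 0.252 and 1.42 CPM in YAP-SY CCA, against 2.22, 4.75 and 4.42 CPM in YAP-S CCA (log2 fold change -2.18 ± 0.56 (SE), adjusted p = 0.00896). These 3 share the receptor Ccr2 and lie in 1 cluster on chromosome 11. Ccl5, a ligand of Ccr1 made largely by T cells, had 0.385, 1.26 and 1.81 CPM in YAP-SY CCA, against 3.66, 7.45 and 6.67 CPM in YAP-S CCA (log2 fold change -2.37 ± 0.60 (SE), adjusted p = 0.008). Ccl6, a ligand of Ccr1 in the mouse, showed the smallest of the called decreases, with 8.65, 6.37 and 7.04 CPM in YAP-SY CCA, against 9.64, 18.5 and 12.7 CPM in YAP-S CCA (log2 fold change -0.89 ± 0.23 (SE), adjusted p = 0.00897). Ccl8 had 0.272, 0.224 and 0.334 CPM in YAP-SY CCA, against 0.575, 3.61 and 3.14 CPM in YAP-S CCA (log2 fold change -3.13 ± 0.91 (SE), adjusted p = 0.0164). YAP-S CCA 3 stood close to the YAP-SY CCA tumors for Ccl8, and the call was lost in limma-voom (adjusted p = 0.147) and without YAP-SY CCA 6 (adjusted p = 0.0593) or YAP-S CCA 4 (adjusted p = 0.0522).

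Ccr1, a receptor of Ccl5 and Ccl6, and Ccr2, the receptor that Ccl2, Ccl7 and Ccl12 share, both fell. Ccr1, on monocytes and neutrophils, had 1.09, 1.84 and 2 CPM in YAP-SY CCA, against 8.37, 8.05 and 9.34 CPM in YAP-S CCA and no overlap (log2 fold change -2.39 ± 0.46 (SE), adjusted p = 0.00193). Ccr2, the Ccl2 receptor of inflammatory monocytes, had 9.13, 7.44 and 9.29 CPM in YAP-SY CCA, against 13.9, 21.3 and 35.2 CPM in YAP-S CCA (log2 fold change -1.44 ± 0.54 (SE), adjusted p = 0.0488), a call that was lost in 11 of the alternative settings. Among these, the adjusted p was 0.0927, 0.132 and 0.0862 without YAP-SY CCA 1, 6 and 8, 0.0763 and 0.18 without YAP-S CCA 4 and 5, and 0.0618, 0.0584 and 0.0582 without YAP-S mixed 2, 7 and 9. It was 0.126 in limma-voom and 0.051 with DESeq2 size factors. Macrophage and monocyte markers were divided, with 3 of 9 higher and 4 of 9 lower. Those that rose were Timd4, Vsig4 and Clec4f, known from resident Kupffer cells, and those that fell were Lyz2, Itgam, Trem2 and Cd68. The list was not divided by cell origin. The summed markers overlapped, at 315 to 418 CPM in YAP-SY CCA and 366 to 723 CPM in YAP-S CCA, and their part in the chemokine results was not tested.

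Large decreases were seen among the ligands and receptors of T cells and dendritic cells. Ccl17 had 0.113, 0.419 and 0.334 CPM in YAP-SY CCA, against 2.39, 7.16 and 5.24 CPM in YAP-S CCA (log2 fold change -4.11 ± 0.79 (SE), adjusted p = 0.00178), and Ccl22 had 0, 1.12 and 0.445 CPM in YAP-SY CCA, against 3.63, 7.61 and 9.27 CPM in YAP-S CCA (log2 fold change -3.74 ± 0.97 (SE), adjusted p = 0.00958). Both are ligands of Ccr4 and are made by dendritic cells and macrophages. Ccr4, given after its values were seen, averaged 0.112 ± 0.101 CPM in YAP-SY CCA and 0.518 ± 0.282 CPM in YAP-S CCA (SD, n = 3 each). Its groups did not overlap, but it did not pass (log2 fold change -2.23 ± 0.87 (SE), adjusted p = 0.0591). Xcr1, a marker of cross-presenting dendritic cells, had 0.295, 0.224 and 0.584 CPM in YAP-SY CCA, against 1.24, 3.25 and 3.09 CPM in YAP-S CCA (log2 fold change -2.78 ± 0.63 (SE), adjusted p = 0.00457). Its ligand Xcl1, from T and NK cells, had 0, 0.811 and 0.306 CPM in YAP-SY CCA, against 0.262, 2.55 and 2.95 CPM in YAP-S CCA and did not pass (log2 fold change -2.38 ± 1.18 (SE), adjusted p = 0.129). YAP-S CCA 3 was the lowest of the YAP-S CCA tumors for Ccl17, Ccl22, Xcr1 and Xcl1, although below the highest YAP-SY CCA tumor only for Xcl1. Ccr7, the receptor that guides dendritic cells and T cells to lymph nodes, had 0, 1.29 and 0.779 CPM in YAP-SY CCA, against 3.52, 4.97 and 6.67 CPM in YAP-S CCA (log2 fold change -2.90 ± 0.86 (SE), adjusted p = 0.0188), and without YAP-S CCA 5 its adjusted p was 0.0548. Of its ligands, Ccl19 had 0, 0.28 and 0.111 CPM in YAP-SY CCA, against 0.464, 1.14 and 0.936 CPM in YAP-S CCA (log2 fold change -2.72 ± 0.88 (SE), adjusted p = 0.0274). This call was lost without YAP-SY CCA 8 (adjusted p = 0.0738), YAP-S CCA 4 (0.0822) or YAP-S CCA 5 (0.07). Ccl21a had 0.657, 0 and 0.25 CPM in YAP-SY CCA, against 2.07, 1.18 and 1.62 CPM in YAP-S CCA and just missed the threshold (log2 fold change -2.38 ± 0.90 (SE), adjusted p = 0.0525). Ccl21a has a near-identical copy, Ccl21b, between which the authors' counting could have split reads.

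Cxcl9 and Cxcl10 are induced by interferon and draw T cells through Cxcr3. Cxcl10 had 4.62, 4.58 and 19.2 CPM in YAP-SY CCA, against 26.6, 65.2 and 49 CPM in YAP-S CCA (log2 fold change -2.31 ± 0.60 (SE), adjusted p = 0.00973). Cxcl9 had 6.28, 22.7 and 26.3 CPM in YAP-SY CCA, against 14.9, 176 and 151 CPM in YAP-S CCA. YAP-S CCA 3 lay within the YAP-SY CCA range while the other 2 YAP-S CCA tumors were far above it, and the gene did not pass (log2 fold change -2.63 ± 0.99 (SE), adjusted p = 0.0521). Cxcr3 had 0.181, 0.447 and 0.779 CPM in YAP-SY CCA, against 0.999, 3.12 and 3.09 CPM in YAP-S CCA without overlap (log2 fold change -2.36 ± 0.59 (SE), adjusted p = 0.00745). Ccr8, a receptor of regulatory T cells, is named after its values were seen because it was called at under 1 CPM. It had 0, 0.028 and 0.0278 CPM in YAP-SY CCA, against 0.172, 0.873 and 0.96 CPM in YAP-S CCA (log2 fold change -5.08 ± 1.47 (SE), adjusted p = 0.0162), and lost its call without YAP-SY CCA 1 (adjusted p = 0.0524) and in limma-voom (adjusted p = 0.0986). T cell markers summed to 5.91 to 10.2 CPM in YAP-SY CCA and 14.7 to 45.9 CPM in YAP-S CCA, with 7 of 8 lower, and Cd3e, a chain of the T cell receptor complex, averaged 0.584 ± 0.219 CPM in YAP-SY CCA and 2.22 ± 0.938 CPM in YAP-S CCA (SD, n = 3 each). Dendritic cell markers summed to 24.6 to 33.2 CPM in YAP-SY CCA and 65.7 to 95.2 CPM in YAP-S CCA, with 5 of 8 lower, Xcr1 itself being 1 of the 5. YAP-S CCA 3 had the lowest T cell sum of the YAP-S CCA tumors, 14.7 CPM. Of the NK cell markers 1 of 7 was lower, and of the platelet markers 2 of 4 tested were. No B and plasma cell marker passed of 6 tested (median log2 fold change 0.23). Endothelial markers were divided, with 2 of 8 higher and 3 of 8 lower (median 0.11). The part of these cells in the chemokine results was not tested.

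The ligands of Cxcr2, which draw neutrophils, were lower as well. Cxcl1 had 3.1, 8.61 and 5.93 CPM in YAP-SY CCA, against 21.6, 25.5 and 8.1 CPM in YAP-S CCA (log2 fold change -1.65 ± 0.54 (SE), adjusted p = 0.0278), with YAP-S CCA 5 just inside the YAP-SY CCA range. Cxcl2 had 0.363, 0.252 and 0.306 CPM in YAP-SY CCA, against 2.53, 1.15 and 1.36 CPM in YAP-S CCA and no overlap (log2 fold change -2.45 ± 0.52 (SE), adjusted p = 0.00304). Cxcl5 had 1.4, 0.0559 and 0.195 CPM in YAP-SY CCA, against 3.82, 3.51 and 3.02 CPM in YAP-S CCA (log2 fold change -2.61 ± 0.85 (SE), adjusted p = 0.0288). Leaving out 1 of 4 tumors ended the call for Cxcl1, with an adjusted p of 0.0912 without YAP-SY CCA 1, 0.0626 without YAP-SY CCA 8, 0.0717 without YAP-S CCA 3 and 0.0968 without YAP-S CCA 4. For Cxcl5 the adjusted p was 0.0707 without YAP-SY CCA 6, 0.0848 without YAP-SY CCA 8, 0.0626 without YAP-S CCA 3, 0.0571 without YAP-S CCA 4 and 0.0513 without YAP-S CCA 5. Cxcl3, also named after its values were seen, had no count in any YAP-SY CCA tumor and 92, 2 and 11 counts in YAP-S CCA 3, 4 and 5. Its YAP-S CCA mean, 0.403 CPM, was 15.6 times a floor of 3 counts over the YAP-SY CCA group (adjusted p = 0.0228). This ratio leaves out the spread of the YAP-S CCA tumors. For Cxcl3, 1 YAP-S CCA tumor held most of the counts. Without that tumor, YAP-S CCA 3, its adjusted p was 0.09, and it was 0.0528 without YAP-SY CCA 1, 0.057 without YAP-SY CCA 6 and 0.0898 in limma-voom. Cxcr2 had 0.43, 0.252 and 0.25 CPM in YAP-SY CCA, against 1.06, 1.25 and 0.585 CPM in YAP-S CCA (log2 fold change -1.63 ± 0.60 (SE), adjusted p = 0.0477), a call lost in 11 alternative settings. Among these, the adjusted p was 0.121 and 0.12 without YAP-SY CCA 6 and 8, 0.0604, 0.0505 and 0.0522 without YAP-SY mixed 3, 5 and 9, 0.105 and 0.135 without YAP-S CCA 3 and 4, and 0.065 without YAP-S mixed 7. It was 0.0699 in limma-voom and 0.0554 without a count filter. Neutrophil markers summed to 6.49 to 9.29 CPM in YAP-SY CCA and 15.9 to 19.3 CPM in YAP-S CCA, with 2 of 6 tested lower and Mmp8 at no count in YAP-SY CCA, and their part in the result was not tested.

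Cxcl14, a ligand made by epithelia and fibroblasts, had 2.54, 1.65 and 2.98 CPM in YAP-SY CCA, against 9.65, 6.18 and 6.95 CPM in YAP-S CCA (log2 fold change -1.67 ± 0.28 (SE), adjusted p = 0.000834). Fibroblast markers fell with it, 8 of 9 past the threshold, and summed to 458 to 630 CPM in YAP-SY CCA and 1970 to 2460 CPM in YAP-S CCA, and their part was not tested. Ccl20, the ligand of Ccr6 on T and B cells, had 1.86, 0.643 and 1.17 CPM in YAP-SY CCA, against 2.13, 3.22 and 6.41 CPM in YAP-S CCA and did not pass (log2 fold change -1.66 ± 0.81 (SE), adjusted p = 0.121). Ccr6 had 0, 0.168 and 0.306 CPM in YAP-SY CCA, against 0.313, 0.477 and 0.749 CPM in YAP-S CCA, near the limit of detection (log2 fold change -1.70 ± 0.93 (SE), adjusted p = 0.167). Ccl25 and Ccl27a, ligands best known from gut and skin, were among the steadiest. Their highest levels over the 12 tumors were 1.92 and 1.55 times their lowest. Ccl25 was still higher in every YAP-SY CCA tumor than in every YAP-S CCA tumor (log2 fold change 0.46 ± 0.22 (SE), adjusted p = 0.114). With scaling by total counts alone, Ccl27a passed as lower in YAP-SY CCA (log2 fold change -0.62, adjusted p = 0.0323). Ccl27a overlaps Il11ra1, which averaged 24.1 CPM over the tumors, and has a near copy, Ccl27b. In all, 19 of the 47 tested genes did not pass, and their log2 fold changes ran from -3.11 for Ccl11 to 0.60 for Ccl28.

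**Figure D2:**
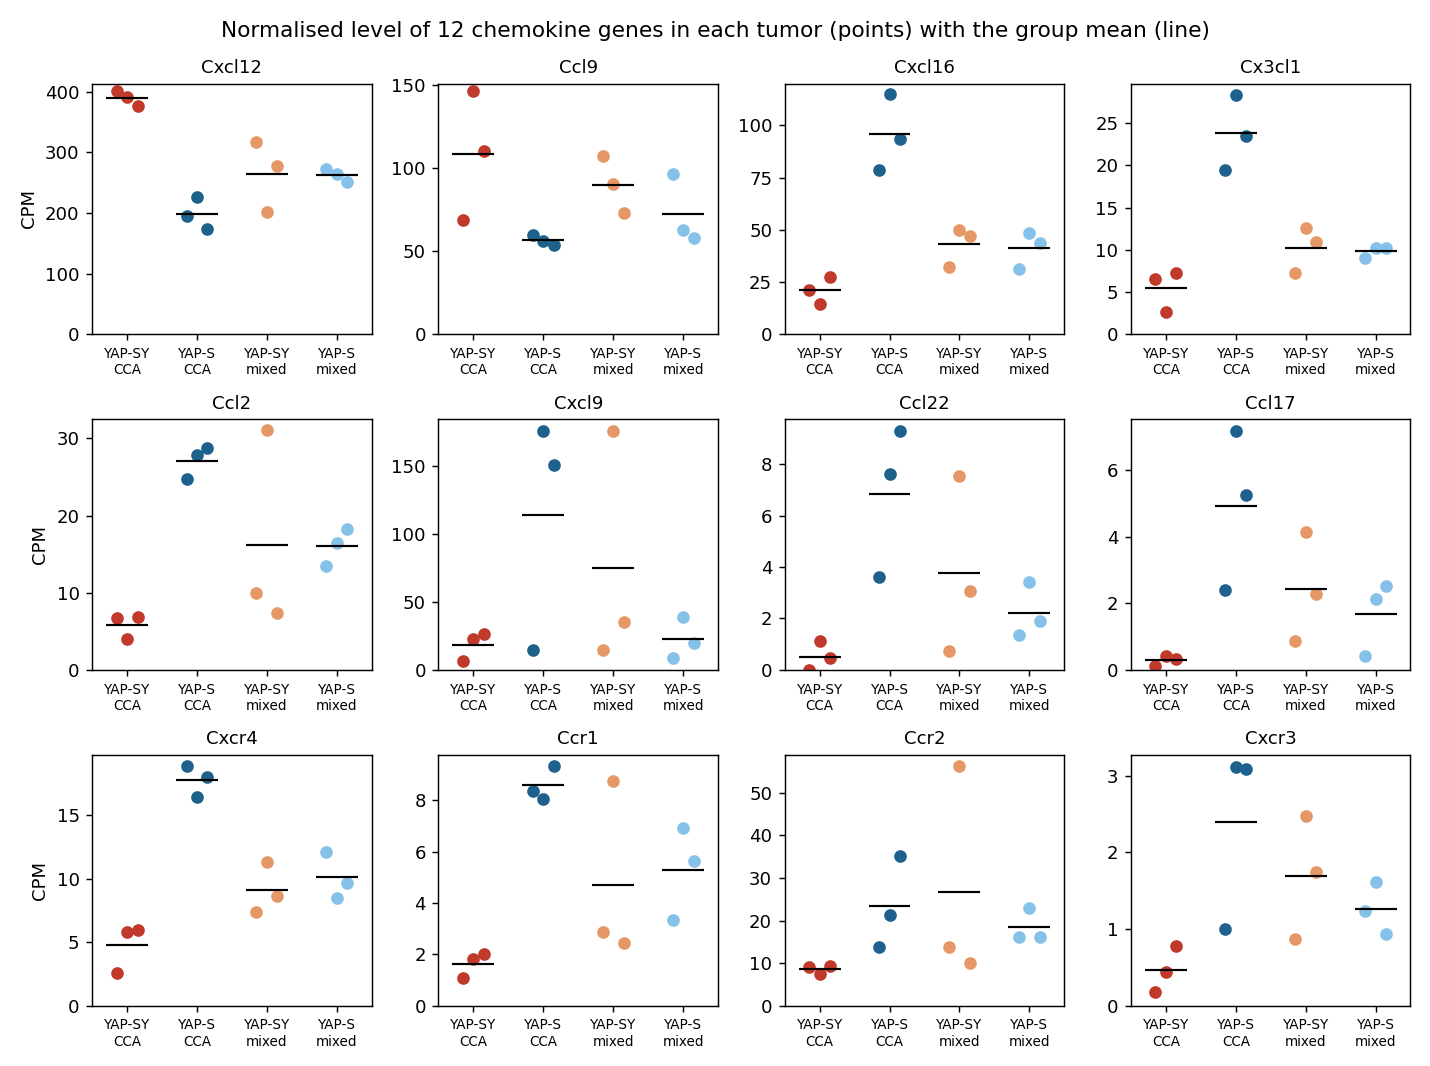
Points are the CPM of 12 chemokine genes in each tumor, lines are group means over 3 tumors, and every vertical axis starts at 0. Cxcl12 is highest in YAP-SY CCA, where the other genes except Ccl9 have their lowest group means, and a single YAP-SY mixed tumor, number 5, stands high for Cxcl9, Ccl2, Ccl22, Ccr1 and Ccr2.

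In mixed tumors no chemokine gene passed the threshold between YAP-SY and YAP-S. The background was 0.0% of genes in edgeR's quasi-likelihood test, and 2 of the 47 chemokine genes had an unadjusted p under 0.05 where 3.01% of all genes did. Limma-voom also called none of the 47. DESeq2's Wald test called none of the 40 chemokine genes to which it gave an adjusted p, and 0.0711% of all genes. Every YAP-SY mixed tumor lay below every YAP-S mixed tumor in 1 gene (Cxcl14) and above in 1 (Cxcr5), against 4.05% and 4.3% of all genes. The median log2 fold change was 0.18. The genes described first in CCA had the following levels in mixed tumors. Cxcl16 had 32, 49.7 and 47.2 CPM in YAP-SY mixed tumors, against 31.3, 48.4 and 43.5 CPM in YAP-S mixed tumors, a log2 fold change of 0.07 ± 0.25 (SE). Cx3cl1 had 7.28, 12.6 and 10.9 CPM in YAP-SY mixed tumors, against 9.06, 10.2 and 10.2 CPM in YAP-S mixed tumors (0.07 ± 0.31 (SE) on the log2 scale). Cxcr4 had 7.42, 11.3 and 8.65 CPM in YAP-SY mixed tumors, against 12.1, 8.52 and 9.68 CPM in YAP-S mixed tumors (-0.14 ± 0.28 (SE)). In Cxcl12 the levels were 317, 201 and 277 CPM in YAP-SY mixed tumors, against 272, 264 and 251 CPM in YAP-S mixed tumors (0.01 ± 0.16 (SE)), and for Ccl9 they were 107, 90.1 and 72.8 CPM in YAP-SY mixed tumors, against 96.1, 62.8 and 57.7 CPM in YAP-S mixed tumors (0.31 ± 0.26 (SE)). All 5 overlapped between the models.

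YAP-SY mixed 5 held the highest level among the 12 tumors for 8 of the 47 genes, namely Ccl20, Xcl1, Cxcl9, Cx3cr1, Ccr9, Ccr2, Ccl2 and Ccr6. YAP-S CCA 4 held it for 17, the most of any tumor, YAP-S CCA 3 for 6 and YAP-S CCA 5 for 5. The same count over all genes was not made, so these numbers have no background. Cxcl9 had 14.5, 176 and 35.1 CPM in YAP-SY mixed tumors, against 8.48, 39.1 and 19.7 CPM in YAP-S mixed tumors. Ccr2 had 13.8, 56.3 and 9.95 CPM in YAP-SY mixed tumors, against 16.1, 22.9 and 16.2 CPM in YAP-S mixed tumors, and Cx3cr1 had 13.3, 39.7 and 12 CPM in YAP-SY mixed tumors, against 15.3, 24.1 and 15.6 CPM in YAP-S mixed tumors. Ccl2 had 9.98, 31.1 and 7.38 CPM in YAP-SY mixed tumors, against 13.5, 16.4 and 18.2 CPM in YAP-S mixed tumors, and Ccl20 had 1.46, 10.8 and 1.01 CPM in YAP-SY mixed tumors, against 1.05, 3.18 and 2.01 CPM in YAP-S mixed tumors. In each of these, number 5 was the only YAP-SY mixed tumor above every YAP-S mixed tumor. The same tumor stood above its group in Ccl17 with 0.865, 4.14 and 2.27 CPM in YAP-SY mixed tumors, against 0.404, 2.14 and 2.52 CPM in YAP-S mixed tumors, in Ccl22 with 0.732, 7.54 and 3.05 CPM in YAP-SY mixed tumors, against 1.35, 3.41 and 1.91 CPM in YAP-S mixed tumors, in Ccl8 with 0.532, 3.14 and 0.84 CPM in YAP-SY mixed tumors, against 0.101, 1.05 and 0.486 CPM in YAP-S mixed tumors and in Ccr1 with 2.89, 8.76 and 2.43 CPM in YAP-SY mixed tumors, against 3.33, 6.92 and 5.63 CPM in YAP-S mixed tumors. It also had the highest T cell marker sum of the mixed tumors, 33.7 CPM, where the other 5 ran from 6.18 to 16.2 CPM, and the highest bile duct marker sum of the 12 tumors, 16400 CPM. Its macrophage and monocyte (675 CPM), dendritic cell (83.7 CPM), NK cell (13.5 CPM) and B and plasma cell (8.42 CPM) sums were likewise the highest of the mixed tumors. Its neutrophil, platelet, fibroblast and endothelial sums were not. The part of these cells in the chemokine levels was not tested.

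Other genes of lymphocytes and dendritic cells also overlapped between the models. Xcr1 had 0.732, 2.6 and 0.949 CPM in YAP-SY mixed tumors, against 0.666, 1.9 and 0.906 CPM in YAP-S mixed tumors, Cxcr3 had 0.865, 2.48 and 1.74 CPM in YAP-SY mixed tumors, against 1.23, 1.62 and 0.939 CPM in YAP-S mixed tumors, and Ccl5 had 1.36, 4 and 3.61 CPM in YAP-SY mixed tumors, against 0.908, 3.31 and 1.81 CPM in YAP-S mixed tumors. Cxcl10 had 9.75, 21.8 and 20.8 CPM in YAP-SY mixed tumors, against 10.1, 25.7 and 8.64 CPM in YAP-S mixed tumors. Ccr7 had 1.06, 4.84 and 2.65 CPM in YAP-SY mixed tumors, against 1.37, 2.68 and 1 CPM in YAP-S mixed tumors, with its ligands Ccl19 having 0.133, 0.471 and 0.257 CPM in YAP-SY mixed tumors, against 0.101, 0.258 and 0.227 CPM in YAP-S mixed tumors and Ccl21a having 0.0333, 0.143 and 0.482 CPM in YAP-SY mixed tumors, against 0.404, 0.273 and 0.291 CPM in YAP-S mixed tumors. Xcl1 had 0.166, 3.37 and 0.77 CPM in YAP-SY mixed tumors, against 0.323, 0.849 and 0.583 CPM in YAP-S mixed tumors. The smallest of these, such as Ccl19, are counted from few reads. The monocyte ligands Ccl7 (1.36, 2.16 and 1.17 CPM in YAP-SY mixed tumors, against 2.22, 2.46 and 1.78 CPM in YAP-S mixed tumors) and Ccl12 (1.3, 3.17 and 1.84 CPM in YAP-SY mixed tumors, against 1.68, 2.73 and 1.13 CPM in YAP-S mixed tumors) overlapped between models, as did Ccl6 (8.38, 6.99 and 8.89 CPM in YAP-SY mixed tumors, against 7.53, 8.22 and 8.67 CPM in YAP-S mixed tumors) and Cxcr6 (1.76, 5.11 and 1.53 CPM in YAP-SY mixed tumors, against 2.14, 4.56 and 2.62 CPM in YAP-S mixed tumors). Ccr6 had 0.133, 0.856 and 0.428 CPM in YAP-SY mixed tumors, against 0.182, 0.561 and 0.291 CPM in YAP-S mixed tumors.

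The neutrophil ligands had log2 fold changes below zero in mixed tumors and did not pass. Cxcl1 had 6.85, 5.14 and 9.15 CPM in YAP-SY mixed tumors, against 6.56, 14.5 and 28.5 CPM in YAP-S mixed tumors (-1.22 ± 0.53 (SE) on the log2 scale), Cxcl2 had 0.166, 0.343 and 0.218 CPM in YAP-SY mixed tumors, against 0.404, 0.288 and 0.874 CPM in YAP-S mixed tumors (-1.03 ± 0.52 (SE)) and Cxcl5 had 0.333, 0.285 and 0.879 CPM in YAP-SY mixed tumors, against 0.343, 0.485 and 1.52 CPM in YAP-S mixed tumors (-0.55 ± 0.84 (SE)). Cxcr2 had 0.266, 0.314 and 0.21 CPM in YAP-SY mixed tumors, against 0.202, 0.819 and 1.29 CPM in YAP-S mixed tumors (-1.54 ± 0.60 (SE)), and Cxcl14 had 2.53, 3.14 and 4.27 CPM in YAP-SY mixed tumors, against 4.89, 4.47 and 5.63 CPM in YAP-S mixed tumors (-0.58 ± 0.27 (SE)). Of these only Cxcl14 had no overlap between the models. YAP-S mixed 9 was the highest of the 12 tumors for Cxcl1 and Cxcr2.

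**Figure D3:**
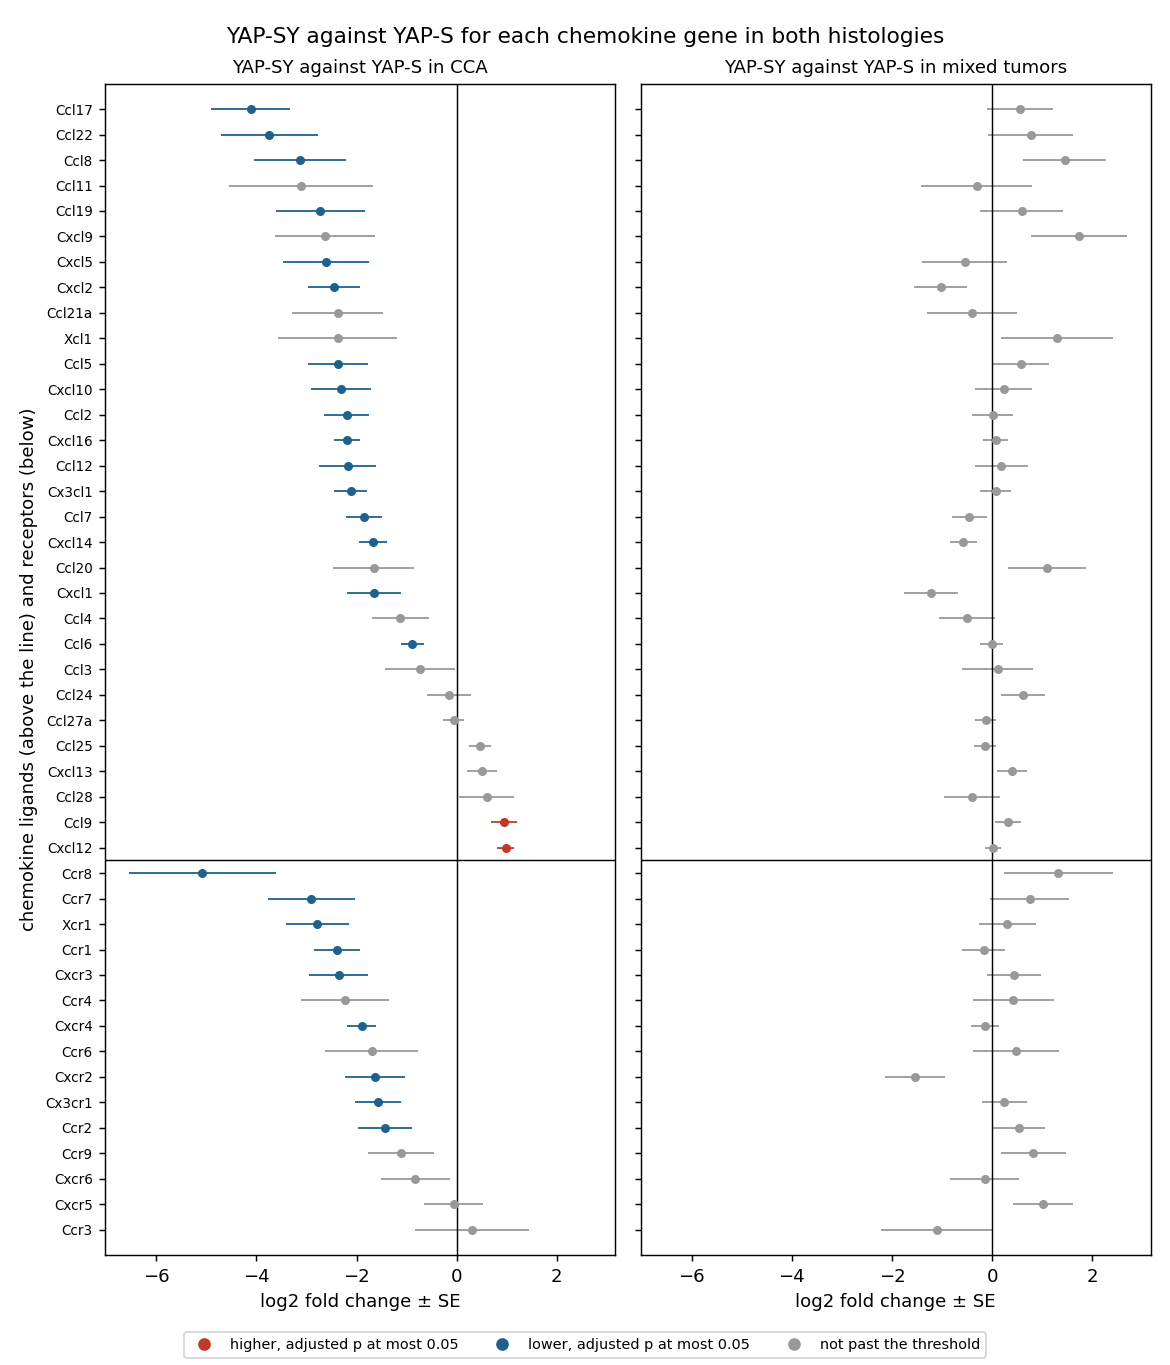
Points are log2 fold changes of YAP-SY against YAP-S with their SE, in CCA on the left and in mixed tumors on the right, for 45 tested genes (Cxcl3, with no count in YAP-SY CCA, is left out). In CCA 25 of the genes drawn are blue (lower past the threshold) and 2 red, and in mixed tumors all are grey.

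The difference of the YAP-SY effect between CCA and mixed tumors was tested directly, and 13 of 47 chemokine genes passed, 12 of them lower and Cxcl12 higher in CCA. The background was 15.2% of all genes, 10.2% lower and 5.02% higher. The 12 were Ccl2, Ccl5, Ccl8, Ccl17, Ccl22, Cx3cl1, Cxcl16, Ccr1, Ccr8, Cxcr3, Cxcr4 and Xcr1. The firmest were Cxcl16 (difference -2.25 ± 0.36 (SE), adjusted p = 0.00394), Cx3cl1 (-2.20 ± 0.45 (SE), adjusted p = 0.00981), Cxcr4 (-1.76 ± 0.39 (SE), adjusted p = 0.0142) and Ccl17 (-4.66 ± 1.02 (SE), adjusted p = 0.0132), which alone kept their call in every setting tried. For Cxcl12 the difference was 0.96 ± 0.23 (SE), adjusted p = 0.0187, a call lost without YAP-S CCA 5 (adjusted p = 0.0571) or YAP-S mixed 2 (0.056) and with library size scaling (0.47, adjusted p = 0.0883). Cxcl1, Cxcl2 and Cxcl5 did not pass, with differences of -0.44 ± 0.74 (SE), -1.41 ± 0.72 (SE) and -2.06 ± 1.18 (SE). Leaving out 1 tumor moved the count of 13 widely, to 8 without YAP-SY CCA 6, 6 without YAP-SY mixed 5, 5 without YAP-S CCA 4 or YAP-S mixed 9, and 4 without YAP-S CCA 5 or YAP-S mixed 2.

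Between histologies within a model few chemokine genes passed. In YAP-SY tumors, CCA against mixed, Cxcl16 was the 1 gene past the threshold, at 21 ± 6.57 CPM in CCA and 43 ± 9.58 CPM in mixed tumors (SD, n = 3 each; log2 fold change -1.03 ± 0.25 (SE), adjusted p = 0.0484), where 2.9% of all genes passed and 2.7% were lower. The call was lost without any 1 of 9 tumors, all but YAP-SY CCA 8, YAP-SY mixed 3 and YAP-S mixed 2. The count was 0 without 8 of those 9, 3 without YAP-SY mixed 9 and 2 without YAP-SY mixed 3 or YAP-S mixed 2. The median over the 47 genes was -0.95. Every CCA tumor lay below every mixed tumor in 11 genes and above in 1, against 12.1% and 7.99% of all genes. In YAP-S tumors none of the 47 passed in edgeR's quasi-likelihood test, where 0.0% of all genes did. There 17 of the 47 had an unadjusted p under 0.05 against 19.8% of all genes, and limma-voom called 4 (8.51%) where it called 4.14% of all genes. DESeq2's Wald test called 5, 11.6% of the chemokine genes to which it gave an adjusted p, and 9.36% of all genes. The median was 0.81, with every CCA tumor above every mixed tumor in 18 genes and below in 2, against 20.2% and 17.6% of all genes. YAP-S CCA had the highest group mean of the 4 groups in 34 of the 47 genes and YAP-SY CCA the lowest in 32. How often the same held over all genes was not counted, so this is not shown to be particular to chemokine genes. Cx3cl1, for example, averaged 23.8 ± 4.47 CPM in YAP-S CCA and 9.81 ± 0.643 CPM in YAP-S mixed tumors (SD, n = 3 each; log2 fold change 1.28 ± 0.32 (SE), adjusted p = 0.0658). These comparisons share tumors with the ones above and are not independent of them.

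Many chemokine genes lie in clusters, and the changes in CCA were set against gene order, with positions in mm10. The chromosome 8 trio of Ccl22, Cx3cl1 and Ccl17 lies within 66.4 kb (chr8:94745590-94812035), and all 3 fell. On chromosome 11, 11 genes span chr11:82035571-83664683. Ccl2, Ccl7, Ccl12, Ccl8, Ccl5 and Ccl6 fell there, Ccl11, Ccl3 and Ccl4 did not pass, and Ccl9 (chr11:83572919-83578636), between Ccl5 and Ccl6, rose. On chromosome 5 the Cxcr2 ligands Cxcl5, Cxcl3, Cxcl1 and Cxcl2 start a run of 7 genes that ends with Cxcl9 and Cxcl10 (chr5:90759299-92348889). All of these except Cxcl9 fell, and Cxcl15 was not tested. In the receptor cluster of chromosome 9, Xcr1, Ccr1 and Ccr2 fell and Ccr9, Cxcr6 and Ccr3 did not pass.

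**Figure D4:**
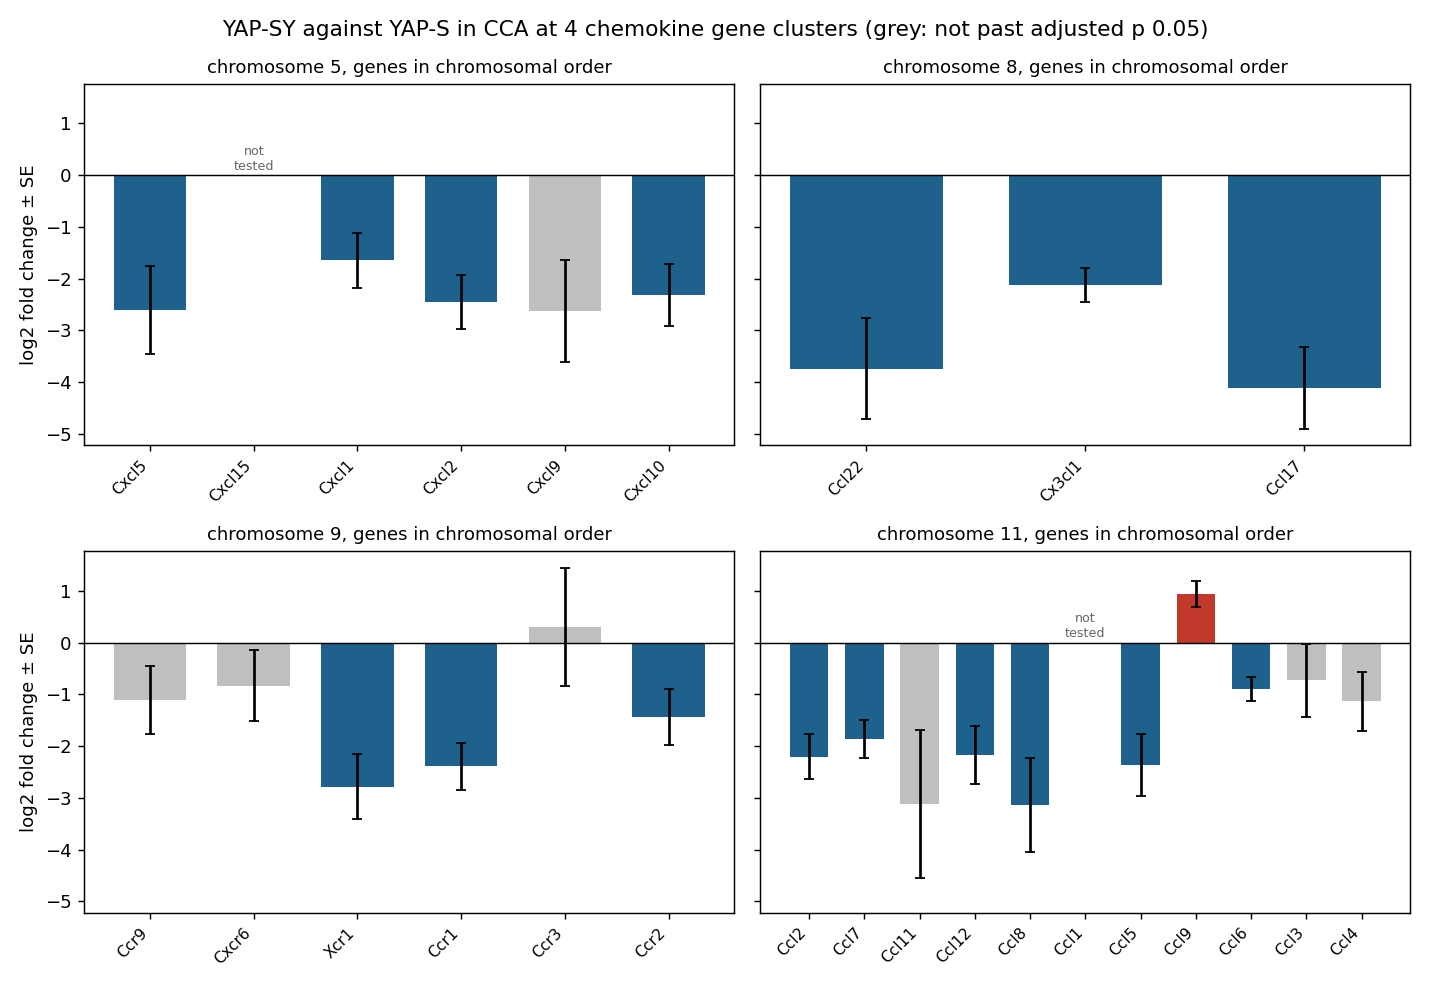
Bars are log2 fold changes of YAP-SY against YAP-S in CCA with their SE for the genes of 4 clusters in chromosomal order, blue for lower and red for higher past the threshold and grey for not past it (Cxcl3, with no count in YAP-SY CCA, is left out of chromosome 5). Ccl9 is the only red bar, between Ccl5 and Ccl6 on chromosome 11, and all 3 genes of chromosome 8 are blue.

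Genes around the chemokine system were read from 4 lists. Over all genes, 20.8% fell and 18.3% rose in YAP-SY CCA against YAP-S CCA. Of 20 tested cytokines and factors that act upstream of chemokine transcription, 16 fell in YAP-SY CCA against YAP-S CCA and none rose (median log2 fold change -1.0). Tnf, an inducer of many chemokines, averaged 0.381 ± 0.0572 CPM in YAP-SY CCA and 3.19 ± 0.636 CPM in YAP-S CCA (log2 fold change -3.06 ± 0.41 (SE), adjusted p = 0.000259; SD, n = 3 each). Nfkb2, a subunit of NF-kB, averaged 10.1 ± 4.34 CPM in YAP-SY CCA and 45.3 ± 2.22 CPM in YAP-S CCA (log2 fold change -2.16 ± 0.30 (SE), adjusted p = 0.000294), and Ifngr1, a chain of the interferon gamma receptor, 41.5 ± 5.68 CPM in YAP-SY CCA and 100 ± 2.12 CPM in YAP-S CCA (log2 fold change -1.27 ± 0.17 (SE), adjusted p = 0.000262). Ifng, which encodes interferon gamma, had no count in YAP-SY CCA and 51 counts over the 3 YAP-S CCA tumors (adjusted p = 0.0288). Its YAP-S CCA mean, 0.28 CPM, was 10.8 times a floor of 3 counts over the YAP-SY CCA group. The spread of the YAP-S CCA tumors is left out of this ratio. Il17a had no count in the CCA tumors of either model. Of 19 tested genes of receptor signalling and desensitisation, 16 fell and 1 rose (median -1.03). Arrb1, a beta-arrestin that uncouples receptors from their G proteins, averaged 41.7 ± 5.92 CPM in YAP-SY CCA and 85.1 ± 7.28 CPM in YAP-S CCA (log2 fold change -1.03 ± 0.15 (SE), adjusted p = 0.000366). Pik3r5 and Arrb2, a regulatory subunit of the PI3 kinase that these receptors activate and a second beta-arrestin, had log2 fold changes of -2.20 ± 0.44 and -1.13 ± 0.24 (SE). Ptprc, the common leukocyte antigen, averaged 24.3 ± 4.86 CPM in YAP-SY CCA and 54.9 ± 17.0 CPM in YAP-S CCA (log2 fold change -1.18 ± 0.32 (SE), adjusted p = 0.0127). The part of leukocytes in the results of both lists was not tested. None of either list passed in mixed tumors, the background being 0.0%.

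Of 9 tested atypical receptors and chemokine relatives, 4 fell and 1 rose (median 0.01), where 20.8% and 18.3% of all genes did. Cmklr1, the receptor of the attractant chemerin, fell (log2 fold change -1.36 ± 0.24 (SE), adjusted p = 0.00114) and Rarres2, which encodes chemerin, rose (log2 fold change 0.85 ± 0.32 (SE), adjusted p = 0.0483). Ackr3, an atypical receptor that takes up Cxcl12, averaged 2.28 ± 1.34 CPM in YAP-SY CCA and 4.75 ± 0.72 CPM in YAP-S CCA (log2 fold change -1.07 ± 0.37 (SE), adjusted p = 0.0386). Ccrl2, an atypical receptor that binds chemerin, fell too (log2 fold change -1.16 ± 0.30 (SE), adjusted p = 0.00831), as did Pf4, a platelet chemokine (log2 fold change -1.86 ± 0.47 (SE), adjusted p = 0.00834). Ackr1, Ackr2 and Ackr4 did not pass. Of 10 genes that cleave chemokines or hold them on glycans, 3 rose and 3 fell (median 0.13). Dpp4, a protease that trims Cxcl12 and Cxcl10 among others, averaged 184 ± 39.6 CPM in YAP-SY CCA and 81.5 ± 5.64 CPM in YAP-S CCA (log2 fold change 1.17 ± 0.17 (SE), adjusted p = 0.000376). The syndecan Sdc2 rose (log2 fold change 0.77 ± 0.14 (SE), adjusted p = 0.00125), and Hspg2, which encodes the heparan sulfate proteoglycan perlecan, fell (log2 fold change -1.99 ± 0.37 (SE), adjusted p = 0.00155).

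SB1 cells had ligands and almost no receptor transcripts. Counts of SB1 and of the tumors come from tables made separately, so levels are set side by side without a test. In SB1 17 of the 55 genes averaged at least 1 CPM, all of them ligands, whereas the 12 tumors together had 32, 23 ligands and 9 receptors. Summed ligand levels were 1700, 2420 and 1990 CPM in the 3 SB1 samples, against 484 to 812 CPM in the tumors. Summed receptor levels were 0.588, 0.676 and 1.75 CPM in SB1, against 37.5 to 155 CPM in the tumors. The 18 receptors had 18, 17 and 46 counts in all, Ccr7 giving most of those in SB1 3, and 9 of them had no count in any SB1 sample. A count of 0 allows up to 0.0982 to 0.118 CPM per sample, by counting error alone. Defining leukocyte markers were low, with Cd3e, Timd4, Vsig4 and Clec4f at no count and Ptprc at 0.038 ± 0.0658 CPM (SD, n = 3). The whole lists summed to 3.89 to 6.5 CPM for T cells, 0.76 to 0.914 CPM for neutrophils, 24.3 to 27.4 CPM for dendritic cells and 41.5 to 72.4 CPM for macrophages and monocytes. Zbtb46 at 25.2 ± 1.3 CPM and Csf1r at 54.5 ± 16 CPM gave most of the last 2 sums (SD, n = 3). Endothelial markers summed to 0.85 to 1.79 CPM and fibroblast markers to 460 to 617 CPM, and the part of these in the SB1 levels was not tested. Krt19 averaged 1430 ± 345 CPM (SD, n = 3). Epcam, another epithelial marker, was at 0.236 ± 0.146 CPM (SD, n = 3).

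Ccl2, Cxcl1, Cxcl5 and Ccl20 had the highest levels per kb in SB1. Cxcl5 had 558, 659 and 566 CPM in SB1, while no tumor exceeded 3.82 CPM. Ccl2 had 311, 558 and 509 CPM in SB1, while the tumors ran from 4.03 to 31.1 CPM. Cxcl1 had 363, 488 and 297 CPM, against 3.1 to 28.5 CPM in tumors, and Ccl20 had 133, 309 and 229 CPM, against 0.643 to 10.8 CPM. For Cxcl12 the line lay lower, with 111, 159 and 84.9 CPM in SB1 and 173 to 402 CPM in tumors. Per kb of transcript, the leading ligands of SB1 were Ccl2 (404 CPM per kb), Cxcl1 (402), Cxcl5 (359) and Ccl20 (157), and those of the tumors were Cxcl12 (34.1), Ccl9 (26.8), Cxcl9 (19.8), Cxcl16 (16.6) and Cxcl10 (14.6).

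The membrane-made ligands were present in the line, Cxcl16 at 84.8, 104 and 138 CPM and Cx3cl1 at 47, 45.4 and 53.2 CPM, which for Cx3cl1 was above every tumor. Ccl7 had 19.4, 21.8 and 23.9 CPM and Cxcl2 10.3, 20.1 and 11.2 CPM. Cxcl10 had 15.1, 17.4 and 28.4 CPM, within the tumors' range, whereas Cxcl9 had 0.0653, 0 and 0.38 CPM. Ccl9, second in the tumors, was at 1.05, 1.55 and 1.41 CPM. Cxcl17, a ligand of mucosal epithelia, had 15.7, 16.1 and 15.9 CPM and Cxcl15, known from mouse lung epithelium, 8.95, 4.25 and 5.97 CPM, though neither passed the tumors' filter on low counts. Ccl22, Xcl1, Ccl12, Ccl3, Ccl19 and Ccl21a had no count in SB1. Ccl17 had 1.93, 1.19 and 1.48 CPM and Ccl5 1.24, 0.477 and 1.94 CPM. Of the receptors of the leading ligands, Cxcr2 had 0.196, 0 and 0 CPM and Cxcr4 0.0327, 0 and 0 CPM, while Ccr2, Ccr6 and Cxcr6 had no count. SB1 also held upstream factors, with Nfkb2 at 125 ± 24.7 CPM and Il33, an alarmin cytokine, at 372 ± 72.9 CPM, while Tnf was at 0.256 ± 0.171 CPM (SD, n = 3).

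**Figure D5:**
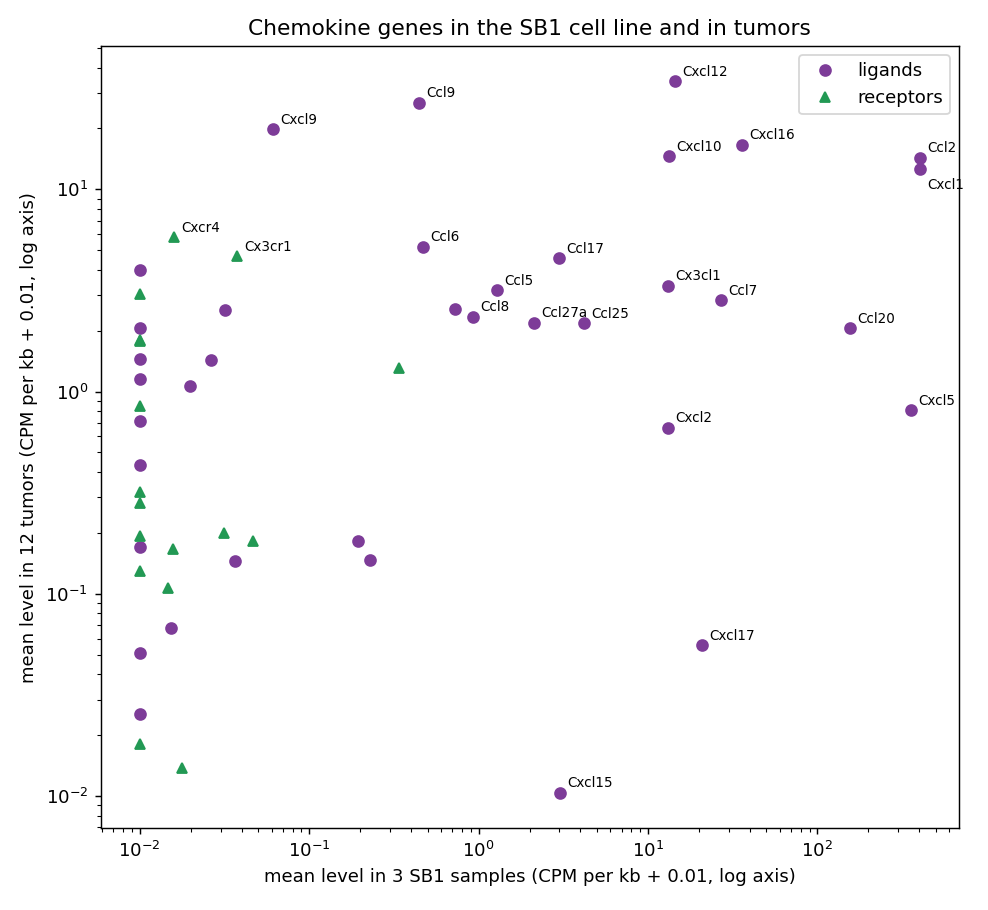
Each point is 1 of 54 chemokine genes, placed by its mean level in 3 SB1 samples (horizontal) and in 12 tumors (vertical), both as CPM per kb plus 0.01 on log axes. The receptors (triangles) lie on the left, below 1 CPM per kb in SB1, and Ccl2, Cxcl1, Cxcl5 and Ccl20 lie at the right edge.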

How the data were processed

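RNA was sequenced from 12 liver tumors (4 groups of 3) and from SB1 cells (3 samples) with a poly(A) kit that does not mark strand, per the labels' protocols. Reads were aligned with STAR to mm10, per the submitters' processing notes, and the counting tool and annotation release are not given in the sources used here. The authors deposited gene counts, named as corrected for the tumors with no description of the correction, and raw counts for SB1. Of the deposited columns, 3 have names that match no sample label and were not used. The SY1 samples have no column that matches their labels, so the SY1 line was not analysed here. Whether the 3 unused columns hold SY1 is not stated.

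The chemokine genes and every gene list were chosen with earlier results of these data known. Normalised levels (CPM) use TMM-scaled library sizes and were computed separately for tumors and SB1 (14318 genes in the SB1 scaling). The tumors were fitted together in edgeR 4.0.16 (R 4.3.3) with 1 term per group, after filterByExpr kept 18318 genes, and tested by the quasi-likelihood F-test with Benjamini-Hochberg adjustment over those genes at 0.05. The SE is the absolute log2 fold change over the square root of F. Named with values were the chemokine genes called in any comparison at 1 CPM or more in the higher group, the 8 highest in CPM over the tumors, the 5 highest in SB1 and the partners of named ligands or receptors, and from each other list the 3 genes with the smallest p in CCA. Genes named beside these, such as Ccr8, Cxcl3, Ccl25, Ccl27a, Adam10, Adam17, Ackr3, Rarres2, Il33, Ifng, Il17a, Ptprc and single cell markers, were chosen after their values were seen. Levels of different genes are compared per kb, except in the naming rule and in sums and shares over genes, which use CPM. Alternatives used DESeq2 1.42.0 (size factors, Wald test) and limma 3.58.1 (voom, with and without a replicate block), upper quartile or library size scaling, other count filters, only the groups compared, and each tumor left out. Intervals from a count of 0 use 3 counts and cover counting error only. Python 3.11.15 with pandas 2.3.3 and numpy 2.4.6 was used for summaries and motif counts. Some results are not reported here.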

Additional observations from a re-analysis of the deposited data

Results flagged for a closer look

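The effect of YAP-SY against YAP-S differed between CCA and mixed tumors, past an adjusted p of 0.05 in edgeR's quasi-likelihood test of that difference, for 13 of 47 chemokine genes, where 15.2% of all genes passed. Of the 13 calls, 9 were lost in at least 1 alternative setting. All values are differences of log2 fold changes, CCA minus mixed, and the 3 tumors of each group were used. Cxcl12 was the 1 gene with a positive difference, 0.96. Among ligands the difference was -2.25 for Cxcl16, -2.20 for Cx3cl1, -2.21 for Ccl2, -2.95 for Ccl5, -4.58 for Ccl8, -4.66 for Ccl17 and -4.51 for Ccl22. Among receptors it was -1.76 for Cxcr4, -2.22 for Ccr1, -2.79 for Cxcr3, -3.08 for Xcr1 and -6.40 for Ccr8, the last counted from few reads.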

How the results depend on the processing

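In CCA, YAP-SY against YAP-S gave 21 to 29 called chemokine genes when 1 tumor was left out and 24 to 34 under the other settings. Over all genes the shares called were 27.4% to 40.7% and 24.0% to 48.2%. Of the 28 calls 17 held in every setting and 11 were lost in at least 1, and none of the 28 changed direction. The directions of genes that were not called were not followed across settings. Scaling by library size alone gave 1 higher and 33 lower. In mixed tumors the count was 0 in every setting.

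CCA against mixed within YAP-S had no call with the settings reported. It had 1 with DESeq2 size factors, upper quartile factors or a minimum of 1 CPM in 3 tumors, 2 without a count filter, 3 with library size alone, 4 with limma-voom with or without the replicate block, 5 with DESeq2's Wald test, 9 in a fit of only the groups compared, and 0 to 2 with 1 tumor left out (2 without YAP-SY CCA 6, and 1 without YAP-SY CCA 8, YAP-SY mixed 3 or YAP-SY mixed 5). Over all genes these settings called 0.639% with DESeq2 size factors, 0.748%, 1.81%, 2.06%, 3.88%, 4.14% (5.41% with the block), 9.36% and 13.5% in that order, and 0.0% to 3.54% with 1 tumor left out. Within YAP-SY the 1 call became 0 with DESeq2 size factors, limma-voom with or without the replicate block, or only the groups compared. It became 2 with upper quartile factors or a minimum of 1 CPM, 7 without a count filter, 9 with library size alone and 11 with DESeq2's Wald test, with 0 to 3 when 1 tumor was left out. Over all genes the shares were 2.69%, 0.229% (0.251% with the block) and 0.0%, then 3.87%, 4.16%, 3.1%, 11% and 10% in the same order, with 0.0% to 3.16% when 1 tumor was left out. The 13 differences became 20 without a count filter, 21 with the Wald test and 23 with library size alone, and 4 to 19 with 1 tumor left out, beside 9.83%, 23.1%, 23.6% and 5.59% to 16.3% of all genes. The cause of these changes was not tested.

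Tumor numbers are shared by 3 pairs across groups. The labels do not say that the numbers pair animals, so the main fit did not take them as pairing. Deviations from the group means correlated at 0.18, 0.35 and 0.09 in these pairs and at -0.47 to 0.29 in 51 other pairs. The pair at 0.35, number 5, lay above all of the 51, and limma's estimate of the block correlation was 0.22. A shared source of same-numbered tumors was not tested. With the replicate block 24 chemokine genes were called in CCA, 0 in mixed tumors and 11 in the difference, beside 38.9%, 0.0% and 16.3% of all genes. It and limma-voom without it left out the same 6 of the 28 calls in CCA, Ccl8, Ccr2, Ccr8, Cx3cr1, Cxcl3 and Cxcr2, with adjusted p from 0.0547 to 0.135 with the block. SB1 had 17 genes at 1 CPM or more, 20 at 0.5 CPM, 14 at 2 CPM and 16 to 17 with 1 sample left out. The 8 untested genes and those under 1 CPM, such as Ccr8 and Ccl19, rest on few reads, and a difference there may not be detectable at this depth.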
